A study of Drosophila melanogaster with 6 samples.

Results

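The genes described here are 40 regulators of the Drosophila cell cycle and of DNA replication, measured in wing disc myoblasts with lowered M1BP. They were listed by name and role and cover the E2F and Rb family, cyclins, cyclin-dependent kinases, Cdc25 phosphatases, a kinase inhibitor, replication origin and licensing factors, the MCM helicase with its sliding clamp, ribonucleotide reductase and mitotic regulators. All 40 were found among the 17494 genes of the deposited count table, 39 by symbol and Orc1 through a span identical to that of the annotated gene. All 40 were among the 10306 genes that passed the filter on low counts.

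M1BP (Motif-1-binding protein) is a transcription factor that binds Motif 1, an element of core promoters. PolyA RNA was sequenced from GFP-sorted myoblasts of dissected wing discs at 0 h after puparium formation (APF), from animals raised at 25 °C. In the M1BP RNAi group, 3 libraries carried the construct UAS-M1BP RNAi #1 together with Mef2-GAL4 and UAS-GFP::Gma, and in the WT group 3 libraries carried Mef2-GAL4 and UAS-GFP::Gma without it. The study asked, among other questions, whether M1BP knockdown affects myoblast proliferation. By counting wing disc nuclei at 0 h APF, it found no significant drop in myoblast number and concluded that M1BP does not control proliferation. The cell cycle genes bear on that question at the level of RNA alone. Mef2-GAL4 acts throughout the muscle lineage and also in some neurons, and Mef2 itself is expressed in the fat body. A single RNAi line was sequenced, and every library pooled the discs of several animals. The WT group carried no control RNAi construct, and w and y were higher in M1BP RNAi (log2 fold changes 3.20 and 7.61). Effects of M1BP knockdown, of the inserted construct and of strain background therefore cannot be told apart.

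E2F transcription factors set the supply of the proteins that copy DNA. In Drosophila, E2f1 with its partner Dp activates S phase genes, E2f2 with Dp mostly represses, and Rbf holds E2F in check until cyclin-dependent kinases phosphorylate it. Origins are first licensed by the origin recognition complex (ORC), Cdc6 and dup, which load the MCM helicase. Cyclin E with Cdk2 then drives S phase, and the phosphatase stg releases Cdk1 for mitosis. The myoblasts on the wing disc divide through larval life before they fuse into flight muscle fibres.

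M1BP itself (FBgn0037621, 3R, 8729790 to 8731698 in dm6) had 1387, 1841 and 1710 normalised counts in the M1BP RNAi libraries, against 5311, 5680 and 5216 in the WT libraries. Normalised counts are counts scaled to a common library size, and they serve throughout except where a length-corrected level is named. The log2 fold change of M1BP was -1.72 (quasi-likelihood test of edgeR, SE 0.10, adjusted p 1.45e-05), and the groups did not overlap. The libraries held 43086545 to 46462396 counts in the M1BP RNAi group and 43279285 to 51855156 in the WT group. The 40 genes together took 0.595% to 0.606% of the counts of an M1BP RNAi library and 0.598% to 0.614% of those of a WT library. All 8 myoblast markers were high, with at least 9359 counts in each library, and none passed an adjusted p of 0.05. The 4 fat body markers had 0 to 10 counts. Of the 4 haemocyte markers, Hml had 0 counts in each M1BP RNAi library and in all but 1 WT library. srp and Pxn were lower in M1BP RNAi without overlap, and NimC1 overlapped. srp had 18.4 to 36.8 normalised counts in M1BP RNAi and 53.8 to 83.8 in WT (edgeR, adjusted p 0.0641). Pxn had 829 to 1040 in M1BP RNAi and 1073 to 1595 in WT (edgeR, adjusted p 0.13). The summed level of the haemocyte list was 18.8 to 23.9 CPM (counts scaled to library size) in M1BP RNAi libraries and 25.6 to 37.2 in WT libraries. The sum over the 5 markers of differentiated muscle was 453.4 to 509.1 CPM in M1BP RNAi libraries and 347.6 to 411.5 in WT libraries. Nearly all of it came from Act57B, with 19179 to 23204 counts in M1BP RNAi and 16658 to 17732 in WT. Each of the others had 481 counts or fewer in every library. In edgeR 2 of the 5 passed an adjusted p of 0.05, Act57B higher and Mlc2 lower. Act88F was higher without overlap (edgeR, adjusted p 0.139), and Mhc and up overlapped. The sums of the lists for wing disc epithelium (5 genes), neurons (3) and trachea (3) were 1840 to 1996, 26.7 to 31.9 and 11.6 to 21.8 CPM in M1BP RNAi libraries and 1902 to 2255, 30.5 to 32.5 and 17.5 to 42.5 CPM in WT libraries, and no gene of these 3 lists passed an adjusted p of 0.05. In the epithelium list ap, shg and sd had 12009 counts or more in each library, while nub had 62 to 79 counts in M1BP RNAi and 92 to 165 in WT (edgeR, adjusted p 0.171). The tracheal gene serp likewise did not overlap between groups, with 248 to 304 normalised counts in M1BP RNAi and 317 to 569 in WT (edgeR, adjusted p 0.125). The part of these other cells in the values below was not tested.

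None of the 40 genes passed the cut-off used by the study, at least 1.5-fold together with an adjusted p no higher than 0.001, in edgeR or in DESeq2. In edgeR 0.475% of all tested genes passed it (0.223% higher and 0.252% lower), and in DESeq2 1.58%. With an adjusted p up to 0.05 and no condition on the fold, the edgeR count was again 0 of 40, where 4.09% of tested genes passed, 1.92% higher and 2.17% lower in M1BP RNAi. At an unadjusted p under 0.05 there were 5 of 40 genes (12.5%), 2 higher and 3 lower, against 20.2% of tested genes, 10.1% in each direction. In DESeq2, 1 of 40 passed an adjusted p of 0.05, where 7.97% of tested genes did. The smallest adjusted p among the 40 in edgeR was 0.129, that of stg. In 8 of the 40 (20.0%) the M1BP RNAi libraries lay all above or all below the WT libraries, 3 above and 5 below, against 26.1% of tested genes, 13.8% above and 12.3% below. Among the 6604 tested genes with at least the mean count of the lowest of the 40, which is 397, these shares were 4.29% at an adjusted p of 0.05, 22.4% at an unadjusted p under 0.05 and 27.1% without overlap. The share of the 40 was below the background under each rule, which is a description over few genes.

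The log2 fold changes of the 40 ran from -0.30 to 0.27. Of these, 21 were above 0 and 19 below, and their median was 0.0079, beside 0.0070 over all tested genes. The median size of a change, without its sign, was 0.058 among the 40, 0.14 among all tested genes and 0.099 among the 6604 with at least the lowest mean count of the 40. The standard errors of the 40 lay between 0.051 and 0.14. Their median was 0.0636, beside 0.0785 among the 6604 genes and 0.102 among all tested genes. The 6604 share only a lowest mean count with the 40, and the part of this difference in precision was not tested. The 95% interval of the fold change lay within 1.5-fold of no change in either direction for all 40 genes, and for 64.7% of all tested genes. Among the 6604 genes of at least the lowest mean count it was 93.9%. The outermost bounds were -0.52 for stg and 0.52 for twe on the log2 scale, where 1.5-fold is 0.58. With 3 libraries a group, a change of a size inside the interval of a gene is not excluded for that gene. The libraries were made from bulk cells, in which fewer cells at a stage of the cycle and less RNA per cell cannot be told apart.

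**Figure D1:**
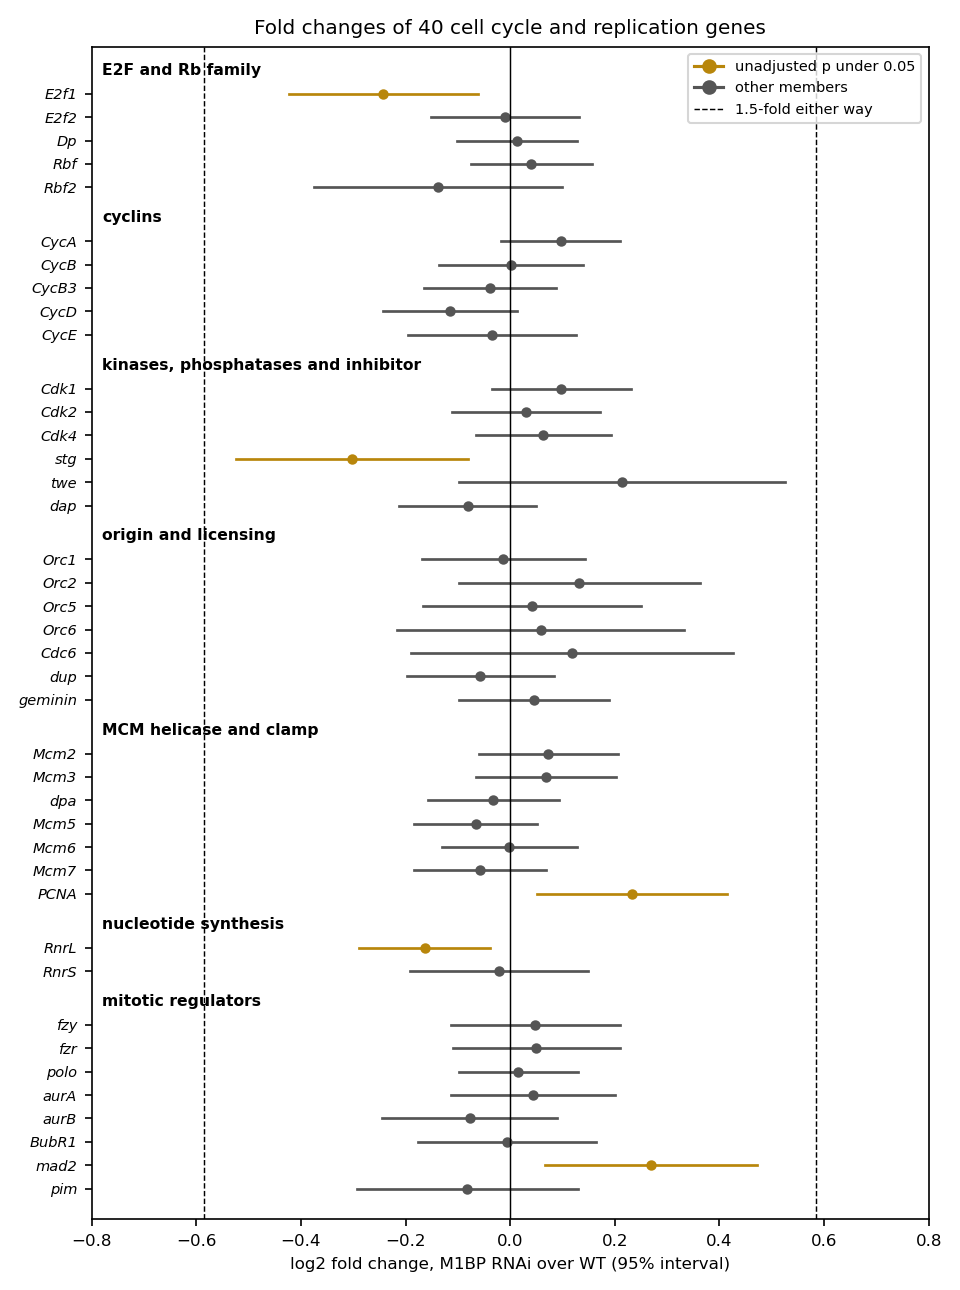
Log2 ratio of M1BP RNAi to WT for the 40 genes, by role, with the 95% interval of the edgeR fit as a horizontal line (n = 3 libraries a group). The dashed lines mark 1.5-fold either way, all 40 intervals lie between them, and the 5 genes at an unadjusted p under 0.05 are drawn in gold.

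**Figure D2:**
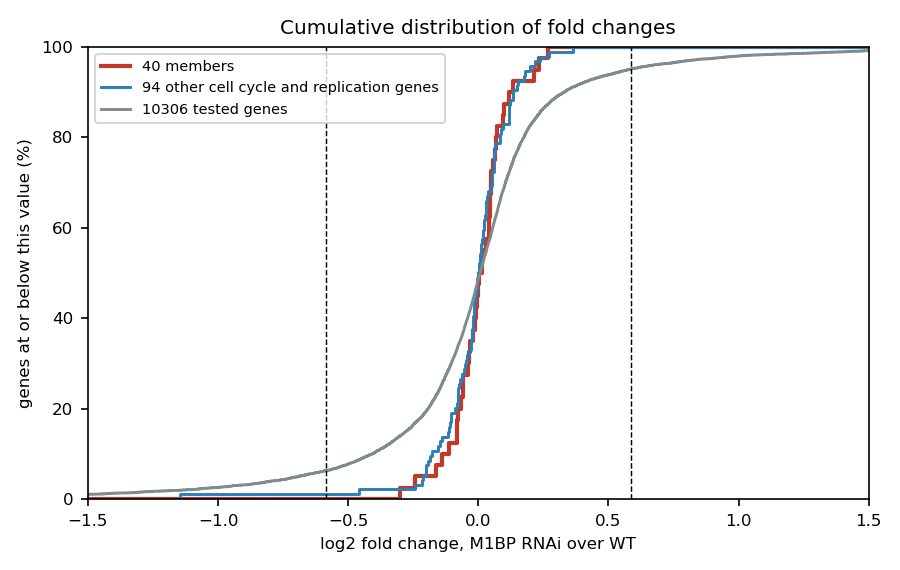
Cumulative share of genes (vertical axis, %) at or below each log2 ratio of M1BP RNAi to WT (horizontal axis) for the 40 genes, 94 other cell cycle and replication genes and the 10306 tested genes. The curve of the 40 is steeper than that of all tested genes, and runs from -0.30 to 0.27.

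Among the E2F and Rb family, E2f1 was the gene with the lowest values in M1BP RNAi relative to WT. E2f1 (FBgn0011766, 3R, 21620304 to 21660871) had 10862, 9081 and 10146 normalised counts in M1BP RNAi, against 12711, 10905 and 11982 in WT. All M1BP RNAi libraries lay below all WT libraries, but the highest M1BP RNAi library, replicate 1, and the lowest WT library, replicate 2, nearly met. The log2 fold change was -0.24 (SE 0.081), and the adjusted p was 0.132 (edgeR) or 0.0515 (DESeq2), neither past 0.05. The exons of E2f1 share 4.39% of their length with those of asRNA:CR46055.

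E2f2, the repressor E2F, had 4245, 4188 and 4061 normalised counts in M1BP RNAi and 4305, 4354 and 3922 in WT. The groups overlapped, and the log2 fold change was -0.0097 (SE 0.063, 95% interval -0.15 to 0.13). Mpp6 shares 19.9% of the exon length of E2f2. The common partner Dp had 14709, 15053 and 15288 in M1BP RNAi and 15021, 14671 and 14934 in WT, a log2 fold change of 0.014 (SE 0.051, 95% interval -0.10 to 0.13). The values of Dp thus overlapped as well, within a narrow range.

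Rbf, the retinoblastoma protein that binds both E2Fs, had 8800, 8796 and 8852 normalised counts in M1BP RNAi libraries and 8730, 8595 and 8393 in WT libraries. Its groups did not overlap, with M1BP RNAi above WT, yet the log2 fold change was only 0.040 (edgeR, SE 0.051, adjusted p 0.703). The second family member, Rbf2, averaged 1008 ± 85.7 in M1BP RNAi and 1110 ± 132 in WT (SD, n = 3 each) and overlapped between groups. Within each library, the level of E2f1 over that of Rbf, both per kilobase of exon, was 0.692, 0.579 and 0.643 in M1BP RNAi and 0.817, 0.712 and 0.801 in WT. The ratio did not overlap between groups, which follows from E2f1 being lower and Rbf higher in M1BP RNAi, each without overlap. It adds no separate result and was not tested.

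The 5 cyclins showed small differences in both directions. CycA, a cyclin of S phase and mitosis, had 10249, 9972 and 10265 normalised counts in M1BP RNAi, all above the 9525, 9585 and 9405 in WT. The log2 fold change of CycA was 0.096 (edgeR, SE 0.051, adjusted p 0.326). CycD, the partner of Cdk4 in growth, lay the other way, with 4891, 5098 and 5226 in M1BP RNAi and 5688, 5383 and 5396 in WT. Again the groups did not overlap, and the log2 fold change was -0.11 (edgeR, SE 0.057, adjusted p 0.301).

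CycE, which with Cdk2 starts S phase and is itself an E2F target in Drosophila, had 5711, 4979 and 5727 normalised counts in M1BP RNAi and 5727, 5279 and 5809 in WT. In both groups replicate 2 was the lowest library, the groups overlapped, and the log2 fold change was -0.035 (SE 0.072, 95% interval -0.20 to 0.13). The mitotic cyclins CycB and CycB3 overlapped between groups, with log2 fold changes of 0.0021 and -0.039. CycB averaged 15264 ± 788 in M1BP RNAi and 15242 ± 659 in WT, while CycB3 averaged 8191 ± 78.2 in M1BP RNAi and 8413 ± 396 in WT (SD, n = 3 each).

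The gene with the largest negative difference of the 40 was stg (string), the Cdc25 phosphatase that activates Cdk1 and limits entry into mitosis. stg (FBgn0003525, 3R, 29251826 to 29255800) had 15663, 12813 and 12496 normalised counts in M1BP RNAi, against 18494, 15112 and 16926 in WT. M1BP RNAi replicate 1 lay above WT replicate 2, so the groups overlapped, and the replicates of stg were spread by 12.8% (M1BP RNAi) and 10.1% (WT) of their mean. The log2 fold change was -0.30 (95% interval -0.52 to -0.081, SE 0.099), and edgeR put its adjusted p at 0.129. The DESeq2 Wald test gave an adjusted p of 0.0346, and without M1BP RNAi replicate 1 edgeR gave -0.42 with an adjusted p of 0.0491, so whether stg was called depended on the test and on that library. No other gene had exons that overlap those of stg.

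**Figure D3:**
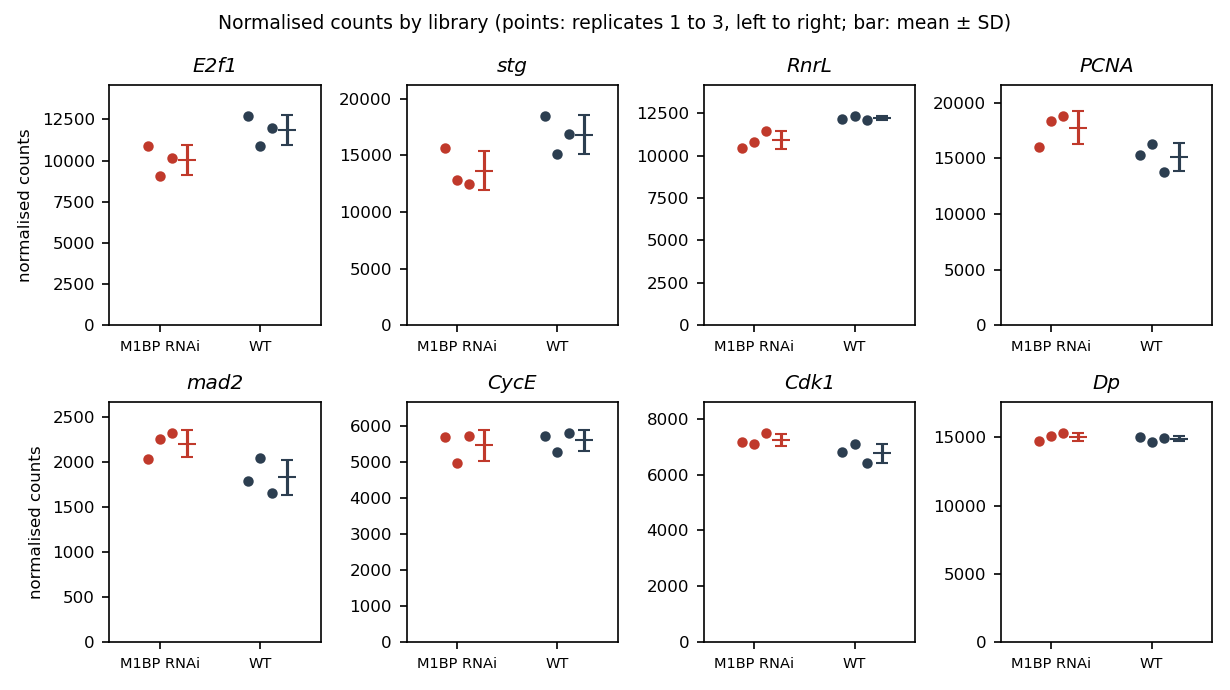
Normalised counts (vertical axes, from 0) of 8 of the 40 genes in the 3 M1BP RNAi libraries (left, red) and the 3 WT libraries (right, dark), with the mean ± SD beside the points. E2f1 and RnrL do not overlap between groups, stg, PCNA and mad2 do, and Dp lies within 14671 and 15288 counts in all 6 libraries.

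Cdk1, the kinase of mitotic entry, had 7147, 7088 and 7478 normalised counts in M1BP RNAi, all above the 6812, 7074 and 6402 in WT. M1BP RNAi replicate 2 and WT replicate 2 nearly met, and the log2 fold change was 0.098 (edgeR, SE 0.059, adjusted p 0.392). dap (dacapo), the inhibitor of Cyclin E with Cdk2, had 3048, 2958 and 2945 in M1BP RNAi, below the 3192, 3183 and 3095 in WT. Its log2 fold change was -0.081 (edgeR, SE 0.058, adjusted p 0.471), again a small separation without overlap.

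The remaining 3 genes of this group overlapped between genotypes. Cdk2 and Cdk4, the kinases of S phase and of growth, had log2 fold changes of 0.030 and 0.063, and 43.9% of the exon length of Cdk2 is shared with CG17267. twe (twine), a second Cdc25 best known for meiosis, had 520, 546 and 485 normalised counts in M1BP RNAi and 389, 535 and 415 in WT. Its log2 fold change of 0.21 had the largest standard error of the 40, 0.14 (edgeR, adjusted p 0.423).

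None of the 7 origin and licensing genes separated the groups, and their log2 fold changes ran from -0.057 for dup to 0.13 for Orc2. They comprise 4 subunits of the origin recognition complex, Orc1, Orc2, Orc5 and Orc6, the loader Cdc6, the Cdt1 protein dup (double parked), and geminin, which blocks dup. Of the 7, 5 were above 0 and 2 below, with a median of 0.046 and a smallest adjusted p of 0.511. Orc6, the lowest of the 40 by counts, had 375, 426 and 412 normalised counts in M1BP RNAi and 370, 424 and 371 in WT. In Cdc6, replicate 1 was the lowest library of both groups, with 1096 in M1BP RNAi and 1037 in WT, and the means of 1345 ± 226 and 1240 ± 178 (SD, n = 3 each) differed by less than the spread. The level of dup over that of geminin per kilobase of exon was 0.810, 0.744 and 0.862 in M1BP RNAi and 0.845, 0.796 and 0.952 in WT, ranges that overlap.

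The 6 subunits of the MCM helicase, which opens DNA at the replication fork, lay within a log2 fold change of -0.066 and 0.073. Mcm5 had 7973, 8112 and 7922 normalised counts in M1BP RNAi, against 8587, 8400 and 8146 in WT. The highest M1BP RNAi library and the lowest WT library of Mcm5 nearly met, and the log2 fold change was -0.066 (edgeR, SE 0.053, adjusted p 0.521). The other 5 overlapped between groups, with 0.073 for Mcm2, 0.069 for Mcm3, -0.032 for dpa (Mcm4), -0.0019 for Mcm6 and -0.058 for Mcm7. An antisense gene, asRNA:CR45871, covers 81.7% of the exon length of Mcm7, and the cDNA and Tn5 kits named in the labels do not mark strand, so reads of the 2 genes cannot be told apart there and the Mcm7 value is uncertain.

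PCNA, the sliding clamp of the DNA polymerases and a classic E2F target, had the largest positive log2 fold change among the helicase and clamp genes. PCNA (FBgn0005655, 2R, 20261754 to 20262883) had 16056, 18360 and 18811 normalised counts in M1BP RNAi, against 15290, 16256 and 13753 in WT. M1BP RNAi replicate 1 lay just below WT replicate 2, so the groups overlapped in that pair. The log2 fold change was 0.23 (95% interval 0.052 to 0.41, SE 0.081), and the adjusted p was 0.15 (edgeR) or 0.0718 (DESeq2). PCNA over Mcm2, per kilobase of exon, was 5.48, 6.09 and 6.29 in M1BP RNAi and 5.63, 5.39 and 4.97 in WT, which overlap through M1BP RNAi replicate 1.

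RnrL and RnrS encode the large and small subunits of ribonucleotide reductase, which makes deoxyribonucleotides. RnrL (FBgn0011703, 2L, 10325026 to 10327943) had 10420, 10798 and 11458 normalised counts in M1BP RNAi, against 12148, 12336 and 12115 in WT. The groups did not overlap and the WT libraries were spread by only 0.981% of their mean. Its log2 fold change was -0.16 (95% interval -0.29 to -0.038, SE 0.056), and the adjusted p was 0.146 (edgeR) or 0.0515 (DESeq2). RnrS, by contrast, had 6730, 7047 and 7022 in M1BP RNAi and 7335, 7550 and 6222 in WT, a log2 fold change of -0.021 (SE 0.076) with WT replicate 3 below every M1BP RNAi library. The ratio of PCNA to RnrL per kilobase, a pair picked for its opposite signs and therefore not tested, was 3.71, 4.10 and 3.95 in M1BP RNAi and 3.03, 3.17 and 2.73 in WT.

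Of the 8 mitotic regulators, mad2 had the largest log2 fold change. mad2 encodes a protein of the spindle checkpoint, which delays anaphase until chromosomes are attached (FBgn0035640, 3L, 5812135 to 5813093). It had 2041, 2255 and 2324 normalised counts in M1BP RNAi and 1796, 2044 and 1656 in WT, and M1BP RNAi replicate 1 lay just below WT replicate 2. The log2 fold change was 0.27 (SE 0.090, 95% interval 0.067 to 0.47), also the highest of the 40 (edgeR, adjusted p 0.137). Without WT replicate 2 it was 0.35 with an adjusted p of 0.0390, so 1 library decided that call. The exons of kri cover 11.5% of those of mad2.

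Its partner in the checkpoint, BubR1, had a log2 fold change of -0.0068 (SE 0.076), with 5683, 6909 and 6746 normalised counts in M1BP RNAi around the 6548, 6460 and 6421 in WT. The kinase polo was the most even gene, at 19779, 19789 and 19815 in M1BP RNAi and 20026, 19429 and 19282 in WT, with a log2 fold change of 0.016 (SE 0.051, 95% interval -0.098 to 0.13). Values for the Aurora kinases were 0.044 for aurA and -0.077 for aurB. The activators of the anaphase promoting complex, fzy (Cdc20) and fzr (Cdh1), had 0.048 and 0.050, and pim (securin), which the complex degrades, had -0.082. All 7 of these overlapped between groups.

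To compare levels between genes, counts were divided by exon length, as RPKM (counts scaled to library size and exon length). PCNA was the highest of the 40 in both groups, at 354.6 ± 29.5 RPKM in M1BP RNAi and 301.7 ± 25.2 RPKM in WT, and twe the lowest, at 4.65 ± 0.275 RPKM in M1BP RNAi and 4.01 ± 0.700 RPKM in WT (SD, n = 3 each). In WT the highest level was 75.2 times the lowest. The median of the 40 in WT was 50.2 RPKM, beside 13.0 RPKM over all tested genes, and 34 of the 40 lay above the latter. After PCNA came polo (142 RPKM in M1BP RNAi, 140.5 RPKM in WT), Cdk1 (143 RPKM in M1BP RNAi, 133.6 RPKM in WT) and dpa (127 RPKM in M1BP RNAi, 130.0 RPKM in WT), and these 3 overlapped each other in order among WT libraries. Of the 39 pairs of neighbours in the WT order, 28 overlapped, and no gene moved by more than 3 places between groups.

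Levels differed within complexes that act as one unit. Among the MCM subunits, dpa and Mcm7 were highest in WT, at 130.0 and 112.6 RPKM, though the Mcm7 level is uncertain because of its antisense gene. Mcm5, Mcm6 and Mcm3 lay close together at 73.1, 71.8 and 71.6 RPKM, and Mcm2 was lowest at 56.6 RPKM. Of the origin recognition subunits, Orc1, Orc2, Orc5 and Orc6 were far lower. They ran from 8.90 RPKM for Orc6 to 21.2 RPKM for Orc1 in M1BP RNAi and from 8.55 to 21.4 RPKM in WT. The subunits Orc3 and Orc4, from the further list described below, lay outside that range. Orc3 had 4.317 RPKM in M1BP RNAi and 4.241 RPKM in WT, but CG34315 shares 100% of its exon length, so the Orc3 level is uncertain. Orc4 had 31.35 RPKM in M1BP RNAi and 28.2 RPKM in WT. In the E2F and Rb family the shared partner Dp was highest (100.4 RPKM in M1BP RNAi, 99.5 RPKM in WT). Rbf followed (52.1 RPKM in M1BP RNAi, 50.7 RPKM in WT), then E2f2 (44.5 RPKM in M1BP RNAi, 44.8 RPKM in WT), E2f1 (33.2 RPKM in M1BP RNAi, 39.3 RPKM in WT) and Rbf2 (8.0 RPKM in M1BP RNAi, 8.81 RPKM in WT). E2f2 and E2f1 overlapped among WT libraries. The order of Rbf, E2f2 and E2f1 depends on exon length, as their CPM in WT were 183.3, 89.67 and 253.7. Among cyclins the level of CycB was highest and that of CycE lowest, 107 and 23.2 RPKM in M1BP RNAi and 107 and 23.8 RPKM in WT. By CPM in WT, CycD (117.4) lay below CycE (119.9).

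**Figure D4:**
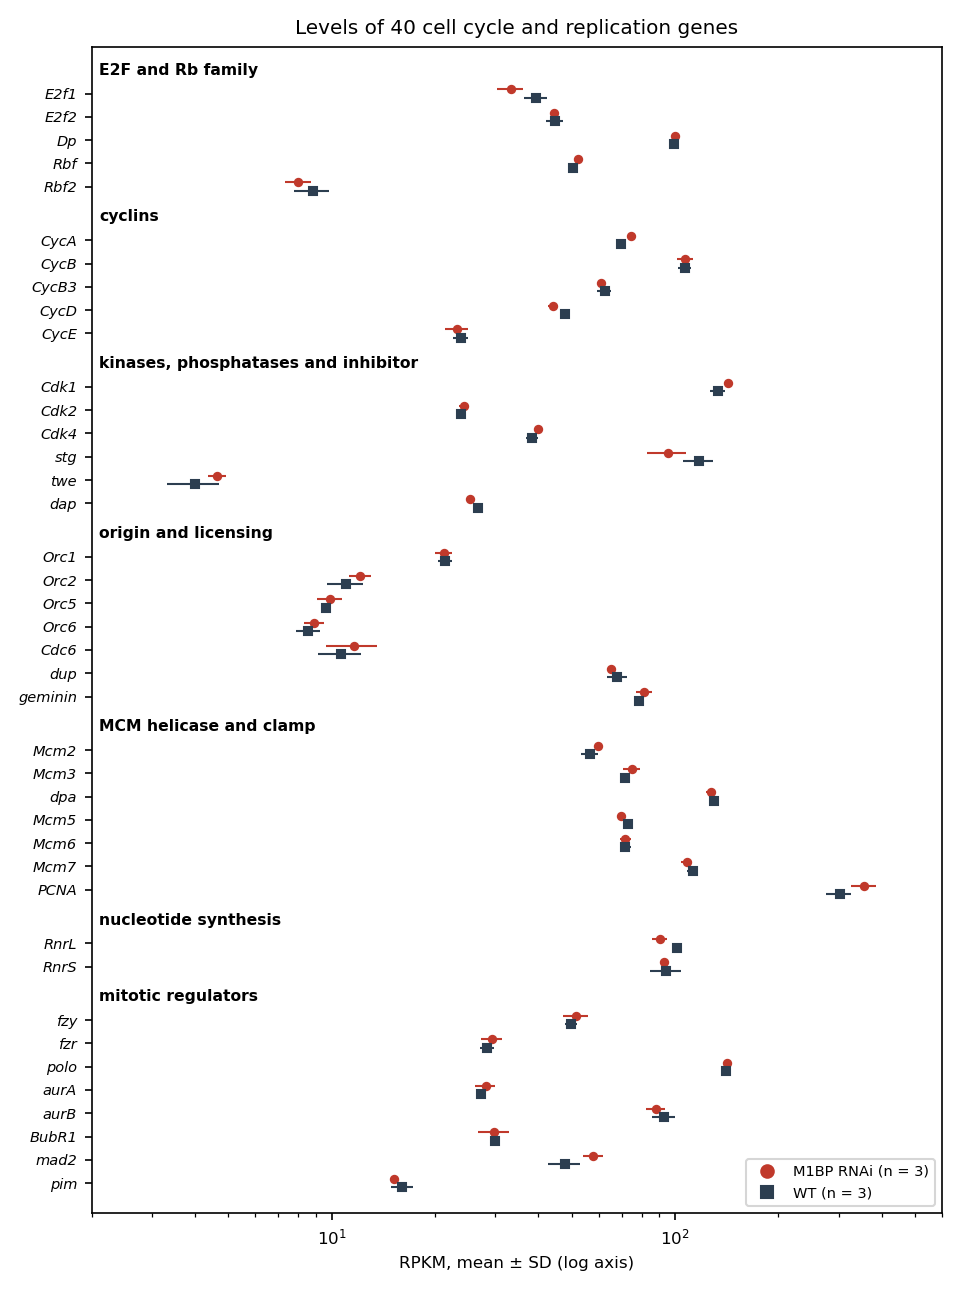
Level of each of the 40 genes as RPKM (horizontal log axis, mean ± SD of 3 libraries), with M1BP RNAi as red circles above WT as dark squares, grouped by role. PCNA is highest at 354.6 RPKM in M1BP RNAi and 301.7 RPKM in WT, and twe is lowest at 4.65 RPKM in M1BP RNAi and 4.01 RPKM in WT.

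Libraries differed slightly over the 40 genes as a whole. The median deviation from the WT mean, in log2, was -0.028, 0.016 and 0.036 in M1BP RNAi replicates 1 to 3 and 0.016, 0.021 and -0.028 in WT replicates 1 to 3. M1BP RNAi replicate 1 was the highest library for 0 of the 40 and the lowest for 10, and WT replicate 3 was the lowest for 12. The medians of both groups thus overlapped and none was further than 0.036 from 0. By role, medians of the log2 fold change were -0.0097 for the E2F and Rb family, -0.035 for cyclins, 0.047 for kinases, phosphatases and inhibitor, 0.046 for origin and licensing, -0.0019 for helicase and clamp, -0.092 for the 2 genes of nucleotide synthesis and 0.030 for mitotic regulators.

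A further 95 genes of the cell cycle and of replication, chosen by function, were set beside the 40, and 94 of them were found and tested. In edgeR 2 of the 94 passed an adjusted p of 0.05, beside the 4.09% of all tested genes, and 0 passed the cut-off of the study, while 15 (16.0%) had an unadjusted p under 0.05, beside the 20.2% of all tested genes. Their median log2 fold change was 0.0010, with 48 above 0 and 46 below, and the intervals of 92 of the 94 lay within 1.5-fold of no change. By role, the genes above 0 were 15 of 18 at the replication fork (median 0.056, smallest adjusted p 0.0913), such as polymerase and replication protein A subunits, and 4 of 4 in deoxynucleotide supply other than ribonucleotide reductase (median 0.10, smallest adjusted p 0.238). They were 1 of 6 in the DNA damage checkpoint (median -0.078, smallest adjusted p 0.178), 3 of 10 in cohesin and condensin (median -0.023) and 5 of 13 among other cell cycle regulators (median -0.020). The other roles had 3 of 7 (partners of E2F and Rbf in the dREAM complex), 5 of 12 (origin firing), 7 of 13 (checkpoint, kinetochore and chromosomal passenger) and 5 of 11 (anaphase promoting complex and separase). Over all tested genes 5284 of 10306 were above 0, and the counts by role were not tested. In deoxynucleotide supply the smallest adjusted p was that of dUTPase. The antisense gene asRNA:CR45778 covers 100% of the exon length of dUTPase, so its value is uncertain.

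The 2 genes that passed were chif and borr. chif (chiffon, FBgn0000307) encodes the regulatory subunit of the Cdc7 kinase, which fires licensed origins. It had 9865, 8663 and 9097 normalised counts in M1BP RNAi, against 13190, 11378 and 13343 in WT. Its log2 fold change was -0.46 (edgeR, SE 0.077, adjusted p 0.0103), the groups did not overlap, and CG42231 shares 19.5% of its exon length. borr (borealin-related, FBgn0032105), a subunit of the chromosomal passenger complex with aurB, had 6303, 6992 and 7131 in M1BP RNAi, against 5024, 5674 and 5187 in WT. Its log2 fold change was 0.36 (edgeR, SE 0.071, adjusted p 0.0212), again without overlap. DESeq2 gave an adjusted p of 2.45e-06 for chif (log2 fold change -0.46) and of 0.000156 for borr (0.36), both changes smaller than 1.5-fold. Over the edgeR fits that left out 1 library, the adjusted p of chif exceeded 0.05 only without M1BP RNAi replicate 2 (0.0649) or WT replicate 1 (0.0640). That of borr was 0.110 and 0.0887 without M1BP RNAi replicate 2 or 3 and 0.106 and 0.0682 without WT replicate 1 or 3. The largest negative log2 fold change of the list, -1.15 (edgeR, SE 0.44, adjusted p 0.184), belonged to APC7, a subunit of the anaphase promoting complex with only 10.0, 28.1 and 19.4 normalised counts in M1BP RNAi and 50.2, 33.3 and 43.9 in WT.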

How the data were processed

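The 6 libraries, 3 of M1BP RNAi and 3 of WT, were grouped by sample title, and the study's methods call the replicates independent. Per the labels, a SMART-Seq low-input kit turned polyA RNA into cDNA, which was PCR-amplified and cut with Tn5, with no molecular identifiers, so reads are not independent molecules. The authors deposited raw counts of reads aligned uniquely to dm6 and summed over exons, with the exon length of each gene. The submitters' processing notes name Subread 2.0.3 and featureCounts. The aligner is not given in the sources used here, and these kits do not mark strand. The authors also deposited their own comparison (mean normalised count, log2 fold change, its error, p and adjusted p), of which only gene symbols and other identifiers were used.

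Counts were tested with edgeR 4.0.16 (R 4.3.3): filterByExpr with its minimum of 10 counts, TMM, a design of genotype alone, the functions glmQLFit and glmQLFTest, and adjustment by Benjamini-Hochberg over all 10306 tested genes. Standard errors came from the estimate and its F, and 95% intervals from the residual and prior degrees of freedom. Normalised counts are counts divided by effective library size, times its mean, and RPKM divides by exon length too. Exon overlaps were found with GenomicRanges 1.54.1 and coordinates are those of the deposited table in dm6. The procedure was tested on simulated data.

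The 40 genes and the other lists were chosen with earlier results of these data known. Full values were given for genes with an unadjusted p under 0.05 or no overlap between groups and for E2f1, E2f2, Dp, Rbf, CycE, PCNA, Cdk1 and stg. Of the second list, genes past 0.05 and the largest change each way were named, and Orc3, Orc4 and dUTPase besides. Values of single libraries of other genes (twe, Orc6, Cdc6, RnrS, BubR1 and polo) were added after their values were seen. The gene lmg of the second list was not matched by name and was left out. Alternatives were RLE factors, DESeq2 1.42.0, filters on low counts, the replicate number as a block and each library left out. Promoter sequences were not analysed here.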

Additional observations from a re-analysis of the deposited data

How the results depend on the processing

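The count of the 40 genes past the threshold of the study was 0 under every alternative run. At an adjusted p of at most 0.05 it was 1 instead of 0 in DESeq2 (stg) and 1 with the replicate block (stg, adjusted p 0.0479), and 0 with RLE factors and with either filter. Leaving out 1 library gave 0 to 1. The count without overlap was 6 or 7 with other factors or filters instead of 8 and 10 to 18 when 1 library was left out, where fewer libraries have to separate. It was 18 without WT replicate 2, 14 without WT replicate 3 and 13 without M1BP RNAi replicate 1. The share of all tested genes was not set beside these counts with 1 library left out, so they cannot be read as many or few. DESeq2 called 7.97% of all tested genes at 0.05 and edgeR 4.09%, and at the study's threshold 172 genes and 49 genes.

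The median log2 fold change of the 40 lay between -0.0019 and 0.025 when 1 library was left out, and that of the second list between -0.017 and 0.0069. The number called in the second list lay between 0 and 4. Added after the data were seen, the count at an unadjusted p under 0.05 lay between 2 and 6, and that of intervals within 1.5-fold between 38 and 40. These counts too have no share of all tested genes beside them. The sign of the smallest changes turned when 1 library was left out: E2f2 lay between -0.063 and 0.012, Dp between -0.0021 and 0.024, and CycE between -0.082 and 0.027. The cause was not tested.

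Same-numbered libraries of the 2 groups did not deviate together (correlations of 0.033, -0.046 and -0.15 across genes), so the numbers were not treated as pairs, and the block changed no other call among the named genes. As CPM, without exon length, polo (418.6 in WT) was highest and Orc6 (8.31 in WT) lowest. The search for promoter motifs and its other window were not run.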
